A study of Homo sapiens with 6 samples.

Results

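The FGF and PDGF axis of the U251 glioma line was followed through 10 genes: the FGF receptors FGFR1, FGFR2 and FGFR3, the ligands FGF1, FGF2 and FGF5, the receptors PDGFRA and PDGFRB, and the ligands PDGFA and PDGFC. The genes were taken by name, and every probe set of the expression array that GEO's platform annotation assigns to one of them alone was included, 37 of the 41091 probe sets with a single gene symbol. The cells carried either a PARK2 transgene (3 arrays) or, as control, a GFP transgene (3 arrays). Both were stable lines made by viral infection and selected with puromycin, so the PARK2 line is set against infected and selected cells and not against parental U251 cells. The level of the transgene was not analysed here, which leaves the labels unchecked by it. The labels call the 3 arrays of a line biological replicates without saying whether they came from separate cultures, infections or clones, so the p-values rest on the spread among these arrays, part of which may be technical. All cells grew in DMEM with 10% fetal bovine serum.

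FGF and PDGF receptors are membrane tyrosine kinases that pair up when a ligand binds and then recruit adaptor proteins that drive the MAP kinase and PI3 kinase pathways. Most secreted FGF ligands need heparan sulfate chains as cofactors, whereas PDGF ligands are dimers that clamp a receptor pair, PDGF-AA and PDGF-CC mainly through PDGFRA. In the brain FGF2 supports neural stem cells and PDGFRA marks oligodendrocyte precursors, and both pathways are widely studied as growth signals of glioma.

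Values are linear intensity units, 1 per probe set and array, and with 3 arrays a group their precision is limited. Array medians lay between 16.2 and 19.3 units in PARK2 cells and between 16.7 and 18.4 units in control cells. Trimmed means (2% left out at either end) ran from 140.8 to 154.9 in PARK2 and from 137.3 to 168.3 units in control arrays. The highest was that of control replicate 1, which the main fit did not scale. Arrays correlated at 0.983 to 0.990 within groups and at 0.954 to 0.962 between groups (Pearson, log2 scale, across probe sets). Fold changes are differences of log2(intensity + 16), PARK2 minus control, which understate the change of dim probe sets. A probe set was tested when its mean over the 6 arrays reached the 40th percentile of the array, which 25 of the 37 did, and a probe set is said to have risen or fallen where its limma adjusted p (Benjamini-Hochberg, over 26603 probe sets) was under 0.05. The glioma and astrocyte markers VIM, at 8921 units in PARK2 and 8898 units in control cells, and SOX2, at 6322 and 5151 units in PARK2 and control cells, were bright in both lines. By contrast, 0 of 5 oligodendrocyte precursor markers (OLIG1, OLIG2, SOX10, CSPG4 and NKX2-2) reached the filter, and their summed level ran from 21.9 to 40.9 units in PARK2 and from 19.04 to 27.95 units in control arrays. Of the 9 tested glioma and astrocyte markers S100B (-1.39) and SLC1A3 (-0.72) fell. GFAP rose (0.53), just under the threshold (limma adjusted p 0.0485) and with overlapping groups. NES, SOX9 and CD44 were bright in both lines as well, but ALDH1L1 was at only 19.7 units in PARK2 and 19.8 units in control cells. AQP4, at 4.25 and 4.96 units in PARK2 and control cells, was under the filter. Of 7 endothelial markers and of 6 microglial and leukocyte markers with a probe set of their own, 1 each reached it.

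Of the 25 tested probe sets 6 were higher in PARK2 cells, where 9.1% of all tested probe sets were, and 1 was lower, where 11.3% were (20.4% in either direction). These shares are 24% and 4% of the members' tested probe sets, and 3 of the 6 that rose belong to FGFR1. The members were chosen with earlier results of these data known, so their shares are a description and not a test. In these bulk samples fewer cells with a transcript and less of it per cell cannot be told apart. Taking the brightest probe set of each gene (highest mean log2 value), 4 of the 10 genes rose (10.8% of all 13720 tested genes did) and 1 fell (13% did). The 4 were FGFR1, FGFR3, FGF2 and PDGFA, and the fall was that of PDGFRA. These 5 genes are also those whose groups did not overlap, as for 39.5% of all tested genes. The groups did not overlap for 9 of the 25 probe sets, a share of 36% that lies near the 35.1% of all tested probe sets. The median log2 fold change was 0.21 over the 25 probe sets and -0.01 over all probe sets tested.

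**Figure D1:**
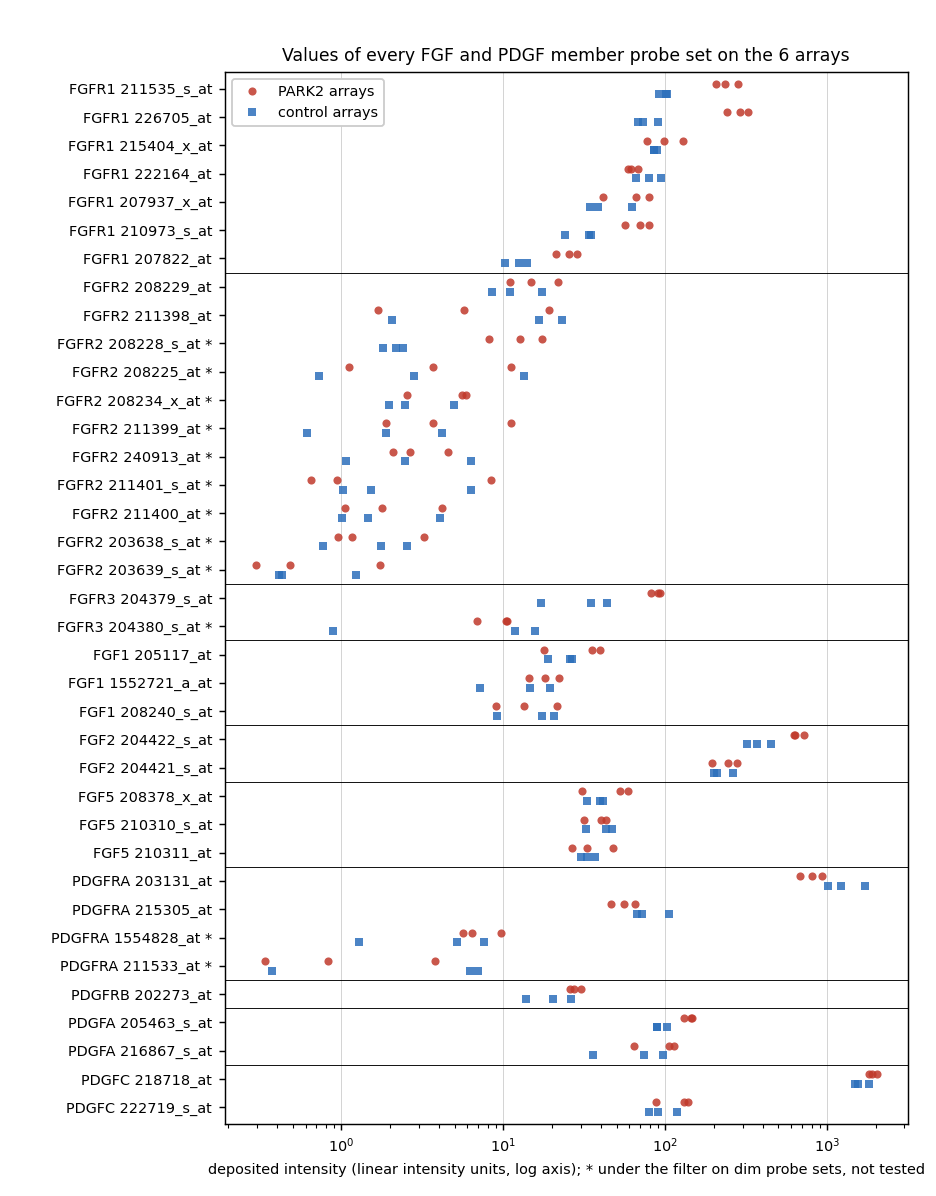
Deposited intensity of each of the 37 member probe sets on the 3 PARK2 arrays (circles) and the 3 control arrays (squares), on a log axis, with probe sets under the filter marked by an asterisk. FGFR1 211535_s_at and 226705_at, FGFR3 204379_s_at, FGF2 204422_s_at and PDGFA 205463_s_at have all PARK2 arrays to the right of all control arrays, and PDGFRA 203131_at has them to the left.

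FGFR1, a receptor for FGF1 and FGF2 among other ligands, rose in PARK2 cells on 3 of its 7 probe sets. Probe set 226705_at read 324, 240.4 and 288 units on the PARK2 arrays, against 90.8, 68.2 and 72.4 units on the control arrays. Each PARK2 array was far above the highest control array, with a log2 fold change of 1.69 (SE 0.17, limma adjusted p 1.3e-06). Probe set 211535_s_at read 233, 207 and 280.3 units in PARK2 cells, against 101, 102 and 91.5 units in control cells. Its groups were also well apart, with a log2 fold change of 1.16 (SE 0.17, limma adjusted p 6.3e-05). Probe set 210973_s_at gave 69.4, 79.5 and 56.0 units in PARK2 cells, against 23.997, 33.8 and 34.6 units in control cells. These were apart too, and differed by 0.85 on the log2 scale (SE 0.19, limma adjusted p 0.0038). The name ending _s_at marks probes that match more than one transcript, while _x_at marks probes that may also bind other genes.

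The other 4 FGFR1 probe sets did not pass. Probe set 207822_at, at percentile 51.9 of the array by mean log2 value, had its groups apart. It read 25.4, 21.1 and 28.6 units in PARK2 cells, against 10.2, 12.4 and 14.1 units in control cells. Its change missed the threshold (0.54, SE 0.21, limma adjusted p 0.076), which it passed after quantile normalization (adjusted p 0.049) and trimmed mean scaling (0.046). Probe sets 215404_x_at (0.18, 95% interval -0.21 to 0.57) and 207937_x_at (0.35, -0.12 to 0.82) had overlapping groups. Probe set 222164_at pointed the other way, at 61.8, 58.7 and 68.3 units in PARK2 cells and 94.2, 79.3 and 66.1 units in control cells, with a log2 fold change of -0.27 (95% interval -0.65 to 0.10, limma adjusted p 0.332). Whether the probe sets of 1 gene changed unequally was tested with limma's diffSplice, which sets each probe set's log2 fold change against that of the gene's others and called 2.13% of 19802 probe sets. Of the members' probe sets it called 2, both of FGFR1: 226705_at lay 1.22 above the other 6 (adjusted p 9.7e-05) and 222164_at lay 1.07 below them, a difference of -1.07 (adjusted p 0.00065). This test made 36 calls among unchanged genes of simulated arrays, so a limma fit of per-array differences, with 12 such calls, was added after seeing that, and there the adjusted p-values were 0.020 for 226705_at and 0.022 for 222164_at. The mean of the 7 probe sets gave FGFR1 a log2 fold change of 0.64 (limma adjusted p 0.0014), so the size depends on the probe set while the direction of the gene's mean is that of its brightest.

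**Figure D2:**
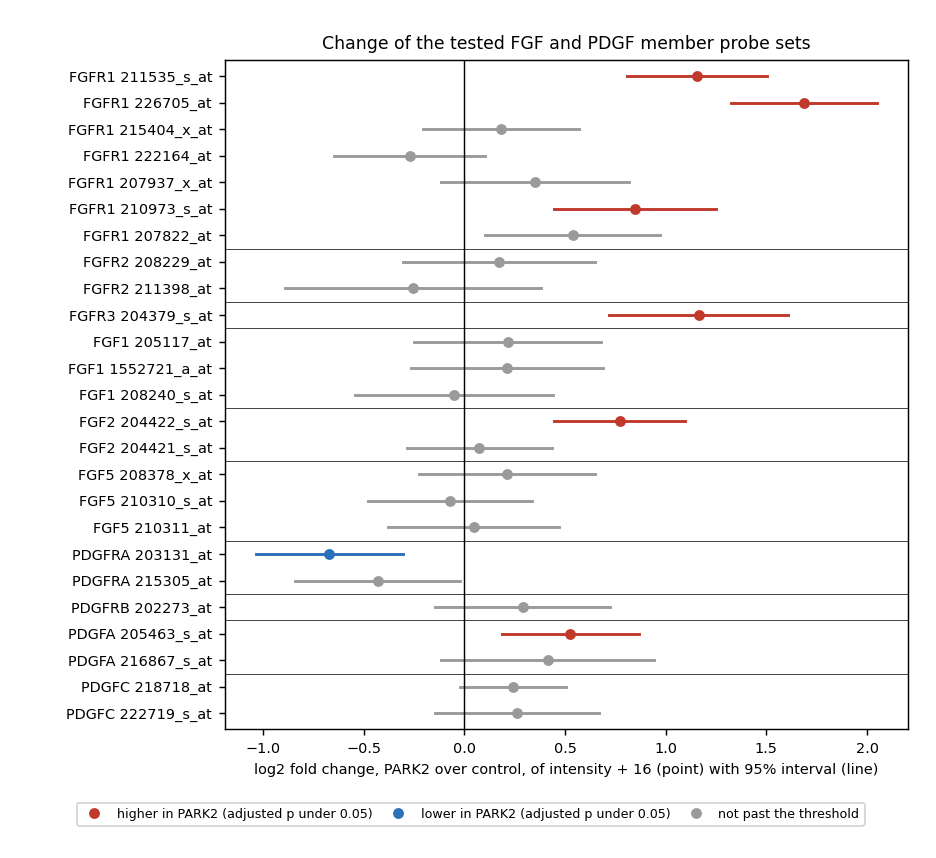
Log2 fold change (points, PARK2 over control) of the 25 tested member probe sets with its 95% interval from limma (lines). The 6 probe sets that rose and the 1 that fell are coloured, and the 7 FGFR1 probe sets spread from -0.27 to 1.69.

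FGFR3, a receptor that restrains the growth of cartilage in bone and is activated by mutation or fusion in some tumours, rose on its 1 tested probe set. Probe set 204379_s_at read 90.1, 81.7 and 92.7 units in PARK2 cells, against 43.5, 34.8 and 17.2 units in control cells. The PARK2 arrays were close together and the control arrays spread more widely, with no overlap (log2 fold change 1.16, SE 0.21, limma adjusted p 0.00064). The log2 fold change was 1.54 with a pseudocount of 1 and 0.68 with 64. The second probe set, 204380_s_at, was under the filter, at 10.6, 6.86 and 10.4 units in PARK2 cells and 11.9, 0.891 and 15.7 units in control cells, and its groups overlapped. Among 13720 genes the patterns most like that of FGFR3 over the 6 arrays were those of TPRG1L, ANGPT1 and GDF15 (Pearson r of 1.00, 0.999 and 0.998). Their log2 fold changes were 0.31 (limma adjusted p 0.158), 0.63 (0.024) and 1.43 (0.00023), so TPRG1L was not called. The correlation follows the shape over all 6 arrays, the spread of the control arrays included, and not the size of the change. Such values were common, since 679 genes reached an r over 0.95.

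FGFR2, a receptor whose alternatively spliced immunoglobulin exons set its ligand range, was in the lower part of the array on each of its 11 probe sets. By mean log2 value they lay from percentile 0.547 to 47.0. The 9 that stayed under the filter ran from 0.295 to 17.4 units over all arrays. The 2 tested probe sets, 208229_at and 211398_at, had overlapping groups and log2 fold changes of 0.17 (95% interval -0.31 to 0.65) and -0.26 (-0.89 to 0.38). On 1 untested probe set, 208228_s_at, the groups were apart, at 12.6, 8.19 and 17.4 units in PARK2 cells and 2.40, 2.18 and 1.81 units in control cells. The dimmest tested mean was 9.96 units, above all 3 of these control values, and of the probe sets with 1 gene under the filter 11.2% had groups apart. In a fit with no filter this probe set was at 0.65 (SE 0.15, limma adjusted p 0.027).

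FGF2, the basic fibroblast growth factor, rose on its brighter probe set. Probe set 204422_s_at read 621, 631 and 714 units in PARK2 cells, against 453, 367 and 321 units in control cells. The lowest PARK2 array lay above the highest control array, and the log2 fold change was 0.77 (SE 0.15, limma adjusted p 0.0015). The other probe set, 204421_s_at, read 195, 275 and 243 units in PARK2 cells and 264, 200.5 and 209.6 units in control cells. These overlap, with a log2 fold change of 0.07 (95% interval -0.29 to 0.43). The difference of 0.70 between the 2 probe sets did not pass diffSplice (adjusted p 0.212), nor the per-array fit (adjusted p 0.098). As the mean of both, FGF2 was at 0.42 (limma adjusted p 0.0378).

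The remaining FGF ligands were less bright than FGF2, at percentiles 48.3 to 63.3 of the array by mean log2 value. Their groups overlapped on every probe set. FGF1, the acidic fibroblast growth factor, lay between 7.22 and 39.7 units on its 3 probe sets, with log2 fold changes from -0.05 to 0.21 and limma adjusted p-values from 0.574 to 0.919. FGF5, known in mammals for ending the growth phase of hair, lay between 26.4 and 59.2 units on its 3 probe sets, with log2 fold changes from -0.07 to 0.21 and limma adjusted p-values from 0.551 to 0.916. For the brightest probe sets the 95% intervals ran from -0.25 to 0.68 for FGF1 205117_at and from -0.23 to 0.65 for FGF5 208378_x_at, so changes of that size could not be told from the spread.

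PDGFRA, the alpha receptor for PDGF, was the single member that fell. Probe set 203131_at read 682, 930.4 and 801 units in PARK2 cells, against 1703, 1224 and 1006 units in control cells. The highest PARK2 array lay just under the lowest control array. Control replicate 1, the array with the highest trimmed mean, stood above the other 2 controls. The log2 fold change was -0.67 (SE 0.17, limma adjusted p 0.0097), and it was -0.47 (adjusted p 0.041) without control replicate 1 and missed the threshold with no filter on dim probe sets (adjusted p 0.059). The dimmer probe set 215305_at also had its groups apart, at 65.0, 46.4 and 55.6 units in PARK2 cells and 106, 71.9 and 66.5 units in control cells, but did not pass (-0.43, 95% interval -0.84 to -0.02, limma adjusted p 0.136). The 2 probe sets under the filter, 1554828_at and 211533_at, stayed below 10 units on each array. PDGFRB, the beta receptor typical of pericytes and fibroblasts, had 1 probe set, at 25.8, 27.4 and 30.2 units in PARK2 cells and 13.9, 26.3 and 20.3 units in control cells. Its groups overlapped (0.29, 95% interval -0.14 to 0.73, limma adjusted p 0.378). Of 10 fibroblast and pericyte markers 8 were tested, of which COL1A2 rose (0.56) and THY1 (-0.80) and FAP (-1.13) fell. The summed level of the 10 ran from 6330 to 7344 units in PARK2 and from 5375 to 6378 units in control arrays. Most of that sum was COL1A2, at a mean of 5496 units in PARK2 and 3724 units in control cells. The part of these markers in the PDGF receptor values was not tested.

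PDGFA, the A chain of PDGF, rose on probe set 205463_s_at, which read 131, 145 and 147 units in PARK2 cells, against 102, 88.7 and 88.3 units in control cells. The groups were apart and the arrays of each lay close together (log2 fold change 0.53, SE 0.16, limma adjusted p 0.028). It missed the threshold when 1 of 4 arrays was left out: PARK2 replicate 2 (adjusted p 0.117), PARK2 replicate 3 (0.113), control replicate 2 (0.116) or control replicate 3 (0.0569), while the log2 fold change stayed between 0.50 and 0.58 without any 1 array. The other probe set, 216867_s_at, overlapped at 63.97, 112.5 and 105.5 units in PARK2 cells and 35.7, 97.3 and 74.0 units in control cells (0.41, 95% interval -0.12 to 0.94). PDGFC, a ligand made as an inactive precursor, was bright on 218718_at at 1900.2, 1816 and 2026 units in PARK2 cells, against 1816, 1487 and 1557 units in control cells. These groups overlap through control replicate 1, and the log2 fold change of 0.24 (SE 0.13) did not pass (limma adjusted p 0.200). It passed without control replicate 1 (0.33, adjusted p 0.020), after quantile normalization (0.29, adjusted p 0.0097) and after trimmed mean scaling (0.27, adjusted p 0.028). The dimmer PDGFC probe set 222719_s_at was at 0.26 (limma adjusted p 0.400).

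Of the 10 genes 5 lie on chromosome 4 (FGFR3, PDGFRA, FGF5, FGF2 and PDGFC), and their tested neighbours in gene order were compared with them. For comparison, 10.8% of all 13720 tested genes were higher and 13% lower. Around FGF2, 10 of the 20 nearest tested genes were higher and 0 lower in PARK2 cells, and 19 of the 20 had a log2 fold change above 0, with a median of 0.49. NUDT6, which overlaps FGF2 on the opposite strand, was the exception at -0.09 (limma adjusted p 0.806). When the median deviation of those neighbours was subtracted on each array, FGF2 was at 0.25 and did not pass (limma adjusted p 0.083). Around FGFR3, 7 of 20 neighbours were higher and 0 lower, with a median of 0.27, and FGFR3 still passed after the correction (0.82, limma adjusted p 0.0039). One of those 7 was FGFRL1, a receptor of the FGF family that lacks the kinase domain, at 220, 249 and 265 units in PARK2 cells, against 107, 98.9 and 91.2 units in control cells (1.18, SE 0.16, limma adjusted p 3.6e-05, and 0.85 after the correction). Around PDGFRA 3 neighbours were higher and 1 lower, and around FGFR1 on chromosome 8 4 were higher and 1 lower. Both genes kept their calls, at -0.72 (limma adjusted p 0.00055) for PDGFRA and 0.98 (8.9e-05) for FGFR1, as did PDGFA on chromosome 7 at 0.41 (0.020), where 3 of 11 neighbours were higher and 1 lower. Whether the neighbours and FGF2 share a cause was not tested.

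**Figure D3:**
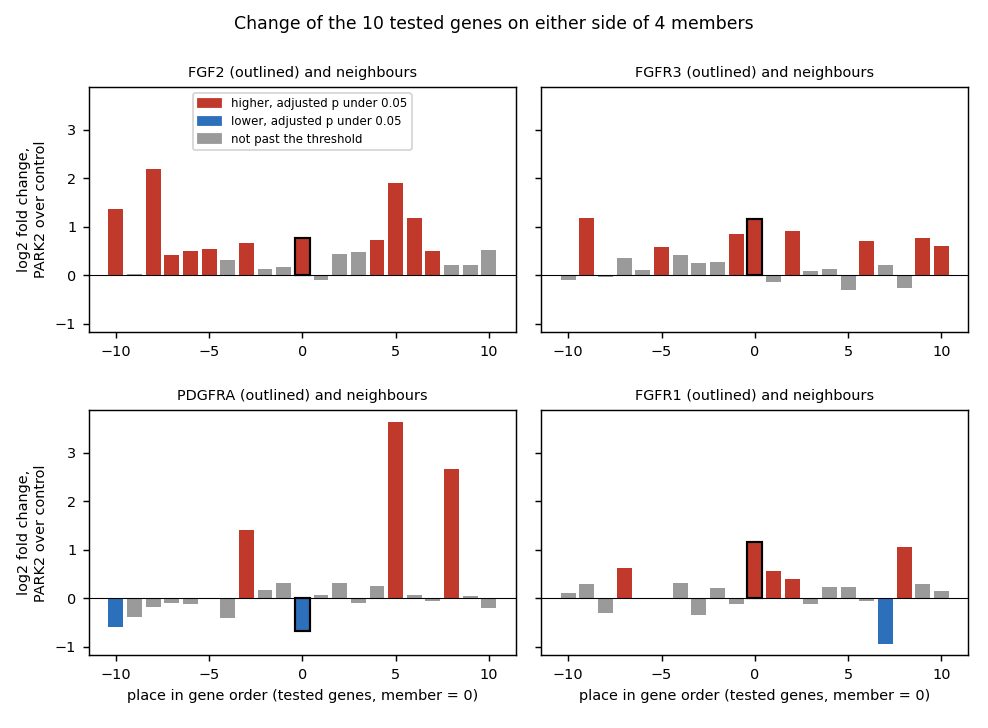
Log2 fold change (PARK2 over control) of FGF2, FGFR3, PDGFRA and FGFR1 (outlined bars at place 0) and of the 10 tested genes on either side in gene order. The bars around FGF2 stand above 0 for 19 of 20 neighbours, with a median of 0.49, while those around PDGFRA have a median of 0.03.

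The bases just before the outermost RefSeq start (GRCh38.p14) of the 3 chromosome 4 members that passed are given to set the 2 that rose beside the 1 that fell. The motifs searched on both strands were the GC box GGGCGG bound by SP1-type factors, the TATA box TATAAA, the core TGACNNNGC of the antioxidant response element, and the EGR1 site GCGTGGGCG. A loose AP-1 pattern TGANTCA, whose central base was left open, was searched as well. Capitals mark each match. FGFR3 (chr4:1793043-1793292, plus strand) and PDGFRA (chr4:54229043-54229292, plus strand) are shown over 250 bases, and FGF2 (chr4:122826581-122826681, plus strand) over the 101 bases that the table holds before its start.
FGFR3: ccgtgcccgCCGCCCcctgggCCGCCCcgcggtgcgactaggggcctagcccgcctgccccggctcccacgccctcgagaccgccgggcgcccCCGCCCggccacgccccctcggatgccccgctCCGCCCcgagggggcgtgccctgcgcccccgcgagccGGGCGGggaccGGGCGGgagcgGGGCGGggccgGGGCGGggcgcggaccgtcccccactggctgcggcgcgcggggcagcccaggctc
FGF2: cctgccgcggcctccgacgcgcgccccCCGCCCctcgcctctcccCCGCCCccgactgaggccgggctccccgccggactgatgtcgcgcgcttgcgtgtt
PDGFRA: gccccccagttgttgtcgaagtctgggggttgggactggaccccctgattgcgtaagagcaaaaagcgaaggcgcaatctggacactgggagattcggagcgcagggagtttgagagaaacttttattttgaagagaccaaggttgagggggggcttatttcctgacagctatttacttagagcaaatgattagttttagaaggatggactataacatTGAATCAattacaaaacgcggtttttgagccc
The FGFR3 window held 8 GC boxes that did not overlap each other, the FGF2 window 2 and the PDGFRA window 0. Of 35116 windows, 42.6% held at least 1 in their first 250 bases and 17.5% in their first 101 bases. Windows begin 250 bases before a listed start, so the 17.5% does not cover the bases next to a start. The G and C content was 86.8% for FGFR3, 80.2% for FGF2 and 46.8% for PDGFRA. The PDGFRA window held 1 match to the loose AP-1 pattern, with an A as its central base. That pattern was found in 6.57% of windows of 250 bases, and the windows held no other match. These matches describe the letters in the windows and are not measured sites.

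Genes that act with these receptors were read from 11 lists of 159 genes in all, of which 115 were tested by their brightest probe set. Of the 115, 26 were higher and 21 lower in PARK2 cells, against 10.8% and 13% of all genes. The lists too were chosen with earlier results of these data known, so these counts are a description and not a test. Among other FGF ligands 2 of 8 tested genes rose and 0 fell. FGF13, an intracellular FGF homologue that is not secreted and binds sodium channels, read 875, 968 and 966 units in PARK2 cells, against 314, 253 and 244 units in control cells (1.74, SE 0.15, limma adjusted p 1.4e-07). FGF12, of the same intracellular group, was at 0.64 (limma adjusted p 0.013), a call lost without PARK2 replicate 2, PARK2 replicate 3 or control replicate 3 (adjusted p up to 0.069), as the mean of its 3 probe sets (0.41, adjusted p 0.052) and after the neighbour correction (0.26, adjusted p 0.127). The other 11 of 19 secreted or intracellular FGF genes were under the filter, as were the receptor FGFR4 and the Klotho coreceptors KL and KLB. Of 6 other tested PDGF and VEGF ligands 0 passed in limma, where 1 had a p under 0.05 before adjustment, and 1 was called higher without control replicate 1, after quantile normalization and after trimmed mean scaling. Of the related receptors KIT, FLT3, CSF1R, FLT1, KDR and FLT4, 2 were tested and 0 passed in limma (0 with a p under 0.05 before adjustment).

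In the list of negative regulators of these receptors 7 of 15 tested genes were higher and 3 lower, against 10.8% and 13% of all genes. Besides the genes detailed below, CBLB (1.14), DUSP6 (1.06), FLRT1 (0.79), SPRY4 (0.61) and PTPN1 (0.44) were higher. PTPN2 (-0.86) and SPRED2 (-0.66) were lower. Of the 10 genes called, 3 are FLRT proteins, membrane proteins that bind FGF receptors and are not established inhibitors, since FLRT3 is known to promote FGF signalling. IL17RD, a membrane antagonist of FGF signalling also called SEF, read 269, 202 and 273 units in PARK2 cells, against 61.8, 52.6 and 41.8 units in control cells (1.95, SE 0.18, limma adjusted p 4.0e-07). FLRT3 and FLRT2 went opposite ways. FLRT3 was at 325 ± 28.9 units in PARK2 and 111 ± 13.8 units in control cells (SD, n = 3 each), a log2 fold change of 1.43 (limma adjusted p 4.3e-06). FLRT2 was at 71.6 ± 17.1 units in PARK2 and 209.4 ± 40.8 units in control cells, a change of -1.37 (limma adjusted p 5.1e-05), or of -0.78 when its probe sets were averaged. Without PARK2 replicate 2 the genes called higher were 4.

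Genes that build, carry and trim heparan sulfate, the cofactor of FGF binding, changed in both directions. Of 11 tested proteoglycans and FGF-binding proteins 3 rose and 1 fell, the fall being lost without PARK2 replicate 2, PARK2 replicate 3, control replicate 1 or control replicate 2, and of 15 tested synthesis and editing enzymes 5 rose and 6 fell. The cell surface glypican GPC6 read 689, 734 and 829 units in PARK2 cells, against 204, 167 and 162 units in control cells (1.99, limma adjusted p 4.2e-08). GPC4 (0.92, and 0.57 after the neighbour correction) and the syndecan SDC4 (0.69) rose as well. The sulfotransferases HS3ST1 (2.09, limma adjusted p 2.0e-07) and HS6ST1 (1.32) rose, at 138 ± 21.3 and 445 ± 12.9 units in PARK2 cells and 19.9 ± 2.91 and 170.0 ± 24.3 units in control cells (SD, n = 3 each). With a pseudocount of 64 HS3ST1 was at 1.26. SULF1, a secreted enzyme that removes sulfate groups from these chains, read 177, 197 and 163 units in PARK2 cells, against 761, 566 and 427 units in control cells (-1.59, SE 0.18, limma adjusted p 6.3e-06). Without PARK2 replicate 1 or PARK2 replicate 2 the enzymes called lower were 3.

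**Figure D4:**
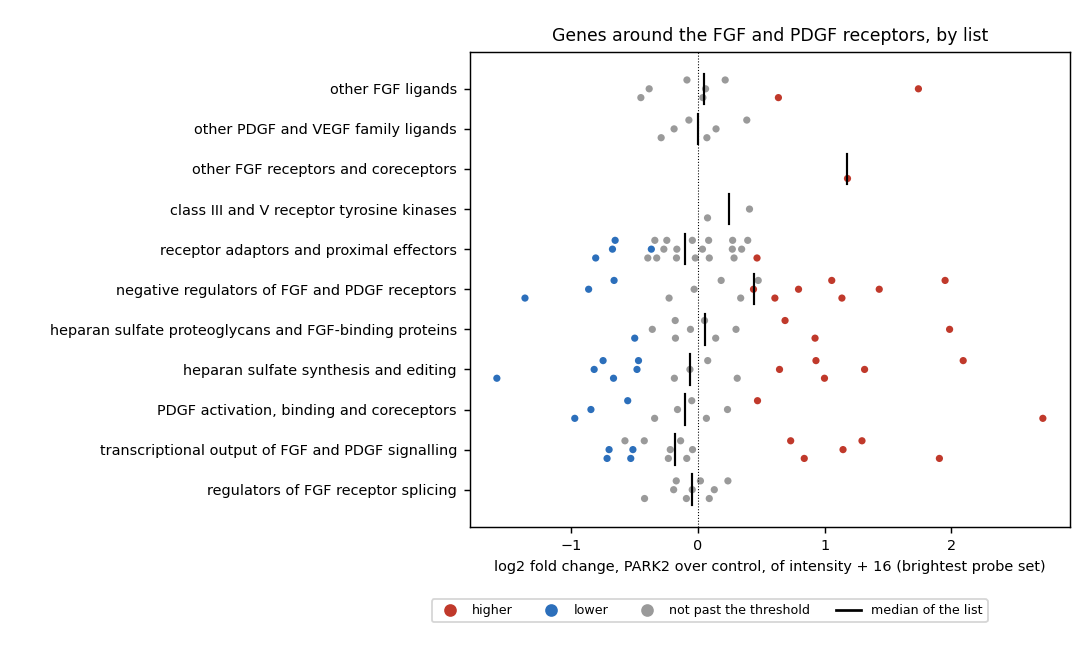
Log2 fold change (PARK2 over control) of the brightest probe set of each tested gene in the 11 lists, with genes that rose or fell coloured and the median of each list as a vertical bar. The medians run from -0.18 for the transcriptional output to 1.18 for the other FGF receptors and coreceptors, where FGFRL1 is the 1 tested gene.

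Among genes that process or bind PDGF, 2 of 10 tested genes rose and 3 fell. PCSK5, a proprotein convertase, read 117, 163 and 175 units in PARK2 cells, against 10.3, 4.27 and 13.5 units in control cells. The control arrays lie near the dimmest tested mean, so the log2 fold change of 2.72 (SE 0.21, limma adjusted p 3.3e-08) was 3.98 with a pseudocount of 1 and 1.55 with 64. FURIN, another convertase, fell (-0.97, limma adjusted p 0.00035, and -0.36 with adjusted p 0.035 after the neighbour correction), as did A2M, a plasma protein that binds growth factors (-0.85, limma adjusted p 0.0024, or -0.46 when its probe sets were averaged). Of 22 tested adaptors and proximal effectors 1 rose and 4 fell, led by the adaptor NCK2 (-0.81), STAT5B (-0.68) and GAB2 (-0.65). STAT5B missed the threshold when PARK2 replicate 1 was left out (adjusted p 0.056), GAB2 after the neighbour correction (-0.32, adjusted p 0.063). The genes called higher were 5 without control replicate 1 and 0 without any 1 of the other 5 arrays, and without PARK2 replicate 1 those called lower were 2.

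Of 16 tested genes that FGF and PDGF signals induce, 5 rose and 4 fell, and the median log2 fold change was -0.18. The 4 that fell were DUSP5 (-0.72), FOSL1 (-0.70), MYC (-0.53) and PHLDA1 (-0.51). FOS (0.84) and DUSP4 (0.73) rose, besides the genes that follow. The transcription factor ETV1 read 193, 164 and 152 units in PARK2 cells, against 23.8, 41.5 and 36.3 units in control cells (1.91, SE 0.19, limma adjusted p 8.0e-07), on 1 of its 4 tested probe sets. It was at 0.86 (adjusted p 0.00094) when the 4 were averaged and at 1.26 with a pseudocount of 64. The early response genes IER3 (1.30, limma adjusted p 0.00033, and 0.71 with a pseudocount of 64) and EGR1 (1.15, limma adjusted p 0.0066) rose too. EGR1 spread widely among control arrays, at 1077, 1520.2 and 1170.0 units in PARK2 cells and 936, 639 and 279 units in control cells, and missed the threshold with no filter (adjusted p 0.080). Without control replicate 3 its log2 fold change was 0.67 (adjusted p 0.021). Without PARK2 replicate 3 the genes called lower were 2. Of 9 tested regulators of FGF receptor splicing, 0 passed in limma, and 0 had a p under 0.05 before adjustment.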

How the data were processed

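Total RNA of U251 cells was hybridised to Affymetrix arrays, 3 of PARK2 and 3 of control cells. Each probe set has a linear intensity per array as deposited, made with GCOS and MAS5 per the submitters' processing notes; the target scale is not given in the sources used here, and no further scaling was applied. Of 54675 probe sets, 41091 have 1 gene symbol in the platform annotation, 1801 several and 11721 none, and 62 are controls. From the intensities log2(intensity + 16) was computed, and probe sets with 1 symbol and a mean at or above the 40th percentile were tested with limma 3.58.1 in R 4.3.3 (lmFit, eBayes with a trend, Benjamini-Hochberg over 26603 probe sets). For lists, up to 3 called genes with the largest change were named per list. In the lists of negative regulators and of induced genes every called gene was named. The members and lists were chosen with earlier results of these data known. On simulated arrays of 26603 probe sets the fit recovered 5.97% of 1.5-fold, 58.2% of 2-fold and 97% of 4-fold changes and called 6 unchanged probe sets. The changed probe sets numbered 67, 67 and 66, far fewer than the 5416 called in the data, which makes the adjustment stricter there. These rates therefore do not give the recovery in the data.

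The labels give both groups replicate numbers 1 to 3. Deviations from the group means correlated at 0.401, 0.179 and 0.130 for same-numbered arrays, and from -0.284 to 0.162 for the others. Only the arrays numbered 1 stood clearly above the rest. Those numbered 3, at 0.130, lay below PARK2 replicate 2 with control replicate 3, at 0.162. The labels do not say what a number marks, and these values do not settle whether the numbers pair the arrays. The fit without a replicate block was kept as the main one, and the fit with it is given as an alternative. Alternatives changed the pseudocount, filter, scaling, trend, array weights, threshold, probe set summary and arrays left out.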

Additional observations from a re-analysis of the deposited data

How the results depend on the processing

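With the replicate block the member probe sets called were 6 higher and 1 lower, as without it, and over all probe sets 2569 were higher and 3202 lower. The block changed no call of a member. Without any 1 array, all tested probe sets called higher numbered from 1498 (without PARK2 replicate 3) to 3659 (without control replicate 1), genes called higher from 925 to 2356, probe sets that differed from the others of their gene from 165 to 458, and such member probe sets from 2 to 4. Quantile normalization gave 3705 probe sets and 2361 genes higher, 861 differences within a gene and 4 among members. Trimmed mean scaling gave 3735 probe sets and 2346 genes higher. Control replicate 1 had the highest trimmed mean of the arrays, at 168.3 units. Array weights, whose estimation stopped before convergence, gave 5905 probe sets higher and 5352 lower, 3395 genes higher and 2976 lower, and 10 member probe sets higher and 3 lower. An adjusted p of 0.01 left 1433 probe sets higher and 1733 lower, and 904 genes higher and 1083 lower. With no filter 0 members were lower at either level. Differences within a gene numbered 124 with a pseudocount of 1, 1172 with 64 (5 among members) and 268 from per-array differences, an alternative chosen after seeing the data. Without _x_at and _s_at probe sets 1 member gene, FGFR1, was higher by its brightest probe set, since FGFR3, FGF2 and PDGFA have no other tested probe sets and dropped out of the fit. The signs that turned belonged to values that had not passed. With array weights FGFR1 207937_x_at was at -0.0500, FGFR2 208229_at at -0.0842, FGF5 210310_s_at at 0.144 and FGF5 210311_at at -0.0552. Without any 1 array FGF5 210310_s_at ranged from -0.181 to 0.0218, FGF5 210311_at from -0.114 to 0.175, FGF1 208240_s_at from -0.206 to 0.0863, and FGF2 204421_s_at from -0.0328 to 0.201. FGFR2 as the mean of its probe sets was at -0.0424. The cause of these shifts was not tested. The 3 arrays per group limit what could be called, and 12 of the 37 member probe sets were too dim to be tested.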
